A study of Mus musculus with 11 samples.

Results

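The circadian clock and its output were read here through 10 genes, Dbp, Tef, Hlf, Nr1d1, Nr1d2, Per1, Per2, Per3, Arntl and Clock, taken by symbol from a table of 24294 gene symbols measured by RNA-seq in mouse small intestine. All 10 were in the table, Arntl under its newer symbol Bmal1. Relative to ND, HFD intestine had more Dbp transcript in every fit run. On deposited values past a filter on low genes it also had more Per3 and less Nr1d1. Per3 did not pass with no filter, and with all libraries Nr1d1 did not pass after scaling or on reads. Arntl, which stayed under that filter, was lower with no filter and on reads but did not pass after scaling with all libraries. The HLJDD group means stood on the same side of ND for these 4 genes. Between HLJDD and HFD no clock gene passed the test, and with all libraries none of the 10764 tested symbols did (0%).

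The series compared 3 groups of mice, HLJDD with 4 libraries, HFD with 4 and ND with 3. HLJDD stands for the herbal Huang Lian Jiedu Decoction, a formula of Chinese medicine, and the title of the series speaks of obese mice. The labels spell out neither HFD nor ND, and give no strain, sex, age, dose or length of feeding, no statement of what the HLJDD mice ate, and no stretch of the small intestine. They also give no hour of collection, light cycle or feeding state, which limits the groups as a model of a daily rhythm: each group was seen without a time axis. Nothing says that the libraries of a group came from separate mice, so p-values measure the spread between these samples, which may be technical.

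In mammals a pair of transcription factors, CLOCK and BMAL1 (the product of Arntl), bind E-boxes and switch on Per1, Per2, Per3, the Cry genes, Nr1d1, Nr1d2 and the output factors Dbp, Tef and Hlf. PER and CRY proteins then repress that pair, and the nuclear receptors REV-ERB alpha and beta, made from Nr1d1 and Nr1d2, repress Arntl through ROR elements, so Arntl transcript is high when Nr1d1 transcript is low within a day. DBP, TEF and HLF, the PAR bZIP factors, pass the rhythm on through D-boxes, where NFIL3 opposes them. In mouse gut the loop runs in epithelium and muscle, sets the daily course of several nutrient transporters, and follows the hours of feeding.

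These elements can be seen in the sequences around the members' start sites. RefSeq (GRCm38.p6) gave 14 windows of 300 bases, 250 before and 50 after a start, for 9 members, with no entry for Per2. They were searched on both strands for the E-box CACGTG, the E-prime box CACGTT, the D-box TTANGTAA, the ROR elements TAGGTCA and TGGGTCA, a long ROR element that overlaps the short one (capitals in the Arntl lines below, with any base before the last), and the cAMP response element TGACGTCA, and 8 of the 14 held at least 1. Of all 32851 windows of this length, 7.15% held the E-box, 4.68% the E-prime box, 2.32% the D-box, 2.61% and 3.98% the short ROR elements, 1.79% the cAMP response element, and 0.0609% (20 windows) the long ROR element. A match is a description of letters, not of binding. The stretches below are shown because Per3, Arntl, Per1, Tef and Nr1d1 carry the differences described further on, and because they hold the elements of the loop; capitals mark the motif. The D-boxes of Per3 lie at chr4:151044837-151044896 and chr4:151044790-151044849 (minus strand), at -205 and -158 from the RefSeq start.
Per3, first D-box: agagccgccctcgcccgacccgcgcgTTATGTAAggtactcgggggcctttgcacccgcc
Per3, second D-box: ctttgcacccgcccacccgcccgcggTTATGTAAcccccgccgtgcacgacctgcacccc
Arntl held the long ROR element at 2 places around its starts, chr7:113207496-113207516 and chr7:113207532-113207552 (plus strand), and the second also contains the short form TAGGTCA. The first element lies at 37 from the upstream RefSeq start and at -10 from the downstream start. The second lies at 27 from the downstream start.
Arntl, first ROR element: gtcggAAAGTAGGTTAgtggt
Arntl, second ROR element: ggcagAAAGTAGGTCAgggac
E-boxes stood before 1 start of Per1 (chr11:69098757-69098814, plus strand) and before both starts of Tef (chr15:81802520-81802577 and chr15:81811250-81811307, plus strand).
Per1, E-box: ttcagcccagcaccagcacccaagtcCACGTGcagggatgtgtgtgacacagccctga
Tef, E-box of the first start: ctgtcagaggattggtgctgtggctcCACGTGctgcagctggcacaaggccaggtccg
Tef, E-box of the second start: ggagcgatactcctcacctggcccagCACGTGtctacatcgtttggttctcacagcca
Nr1d1 held an E-prime box, read on the other strand as AACGTG, at chr11:98775378-98775431 (minus strand).
Nr1d1, E-prime box: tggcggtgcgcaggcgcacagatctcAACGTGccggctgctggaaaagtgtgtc
Hlf held a cAMP response element at -9, and the windows of Dbp, Nr1d2 and Clock held none of these letters.

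Values are FPKM, fragments per kilobase of gene scaled to a fixed number of mapped reads, as deposited. Each library had 30100481 to 37940645 reads in genes. Mitochondrially encoded transcripts made up 40.7% of these reads in HLJDD replicate 2, 32.4% in HFD replicate 1 and 10.4% to 19.3% elsewhere, and results that rest on these 2 libraries are given with and without them. Changes are differences of group means of log2(FPKM + 1), which understate the change of low genes, tested with limma over the 10764 symbols at 1 FPKM or more in at least 3 libraries, with Benjamini-Hochberg adjusted p under 0.05 as the threshold. The median change of all these symbols was -0.20 when HFD was set against ND, 0.06 when HLJDD was set against HFD, and -0.13 when HLJDD was set against ND. Each change is therefore also given after median-ratio scaling, which divides a library by its median ratio to the mean library and brought these medians to -0.00020, 0.0033 and 0.019. In RNA from whole tissue, fewer cells of a type and less RNA per cell cannot be told apart.

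Of the 10 genes, 9 passed the filter. Arntl stayed under 1 FPKM in all 11 libraries and was tested in the fit with no filter and in a fit on reads. Per3 was under 1 FPKM in all 3 ND libraries and passed only through HFD and HLJDD, so the fit with no filter and the fit on reads, where every member had at least 10 reads in each library, are given beside its result.

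In HFD against ND, 2 of the 9 genes were called higher, Dbp and Per3, beside 5.06% of all tested symbols, and 1 lower, Nr1d1, beside 11.5%. After scaling 4 were higher, Dbp, Per1, Per3 and Tef, beside 11.6% of symbols, and none lower, beside 11.4%. With the 2 mitochondria-rich libraries left out, 5 were higher as deposited, beside 9.41% of symbols, and 1 lower, beside 21.7%. The median change of the 9 genes was 0.39, against -0.20 over all symbols, and 0.57 against -0.00020 after scaling. On reads, limma-voom called 5 of the 10 genes higher, Dbp, Tef, Per1, Per2 and Per3, beside 8.56% of symbols, and Arntl lower. The fit with no filter called Dbp higher, beside 1.61% of symbols, and Nr1d1 and Arntl lower. The libraries of both groups did not overlap, as deposited, for Dbp, Per1 and Per3 (HFD above ND, 9.57% of symbols) and for Nr1d1 and Arntl (HFD below ND, 32.9%). After scaling they did not overlap for Dbp, Per1, Per3, Tef and Per2 (HFD above ND, 17% of symbols). With HFD below ND none of the 10 genes was separated after scaling, beside 18.6% of symbols, so Nr1d1 and Arntl overlapped there.

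In HLJDD against ND, which uses the same ND libraries, 1 gene was called higher, Per3, beside 4.1% of symbols, and 1 lower, Nr1d1, beside 7.79%. After scaling 5 were higher, Dbp, Per1, Per2, Per3 and Tef, beside 8.62% of symbols, and none lower, beside 9.18%. Without the 2 mitochondria-rich libraries 5 were higher as deposited, beside 11.9% of symbols, and 1 lower, beside 12%. On reads the same 5 were higher, beside 6.53% of symbols, and Arntl lower. The libraries did not overlap for Per2 and Per3 (HLJDD above ND, 8.3% of symbols) and for Nr1d1 and Arntl (HLJDD below ND, 21.3%).

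**Figure D1:**
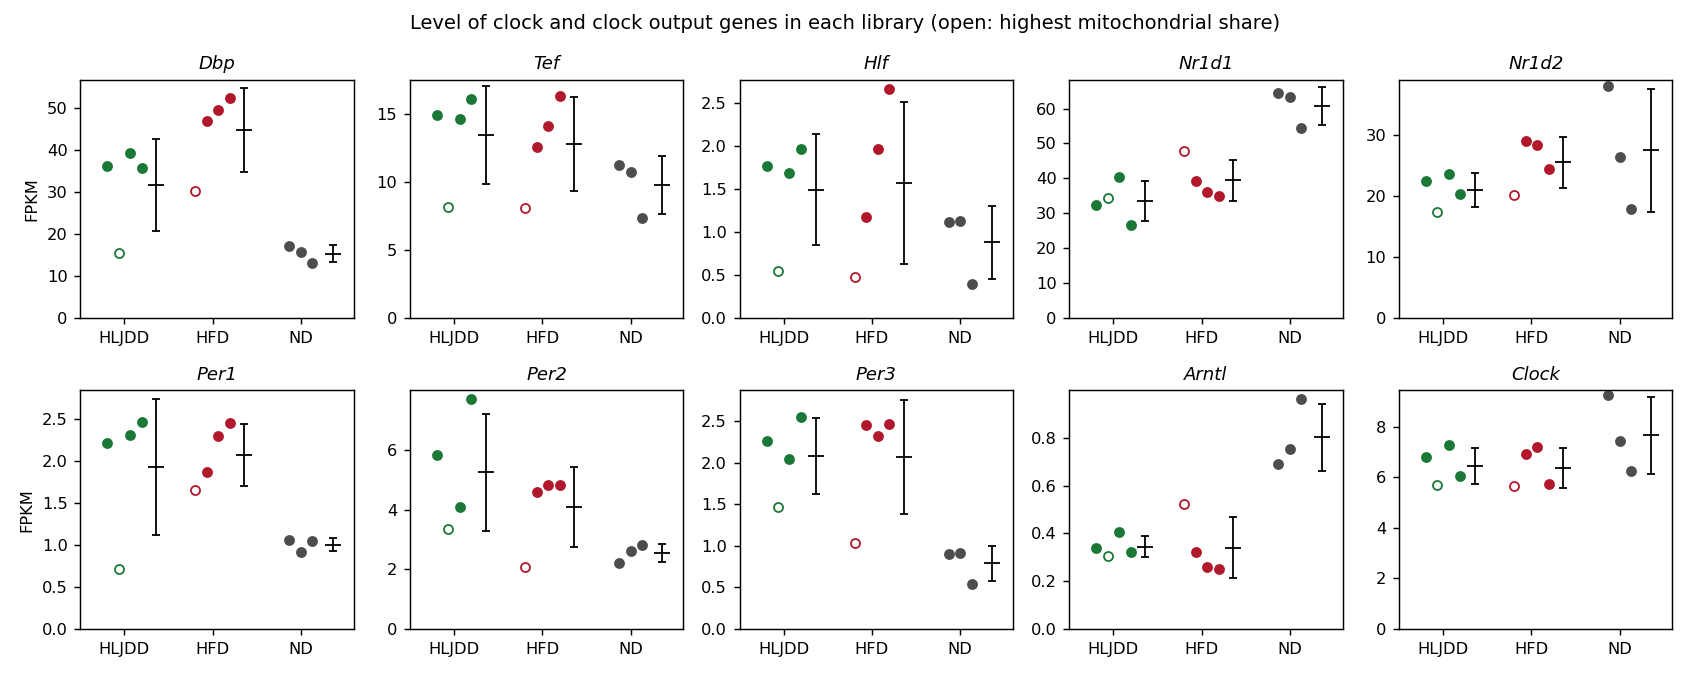
FPKM of the 10 genes in each library of HLJDD, HFD and ND, with the mean and SD of each group as bars beside the points and open points for HFD replicate 1 and HLJDD replicate 2. Dbp and Per3 stand above ND in HFD, Nr1d1 and Arntl stand below ND in HFD and HLJDD, and Clock overlaps in all 3 groups.

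Dbp encodes the D-box binding protein, the output factor with the widest daily swing in many mouse tissues (chromosome 7, 45705100 to 45710203, plus strand). It stood at 36.2, 15.6, 39.3 and 35.8 FPKM in HLJDD libraries, at 30.2, 46.9, 49.6 and 52.3 FPKM in HFD libraries, and at 17.2, 15.8 and 13.2 FPKM in ND libraries. All 4 HFD libraries were above all 3 ND libraries, while HLJDD replicate 2 fell within the ND range and the other 3 HLJDD libraries lay above it. Means were 31.7 ± 10.9 FPKM in HLJDD (SD, n = 4), 44.7 ± 9.96 in HFD (n = 4) and 15.4 ± 2.07 in ND (n = 3), so that the HFD mean was 2.91 times and the HLJDD mean 2.06 times the ND mean. Against ND, Dbp rose in HFD by 1.46 on the log2 scale (SE 0.29, limma adjusted p = 0.00631), and by 1.70 after scaling (SE 0.18, adjusted p = 0.000318). It was called in each of the 18 alternative fits, with log2 changes of 1.34 to 1.78. In HLJDD against ND the log2 change was 0.92 (SE 0.29, adjusted p = 0.0591), 1.10 after scaling (SE 0.18, adjusted p = 0.00306), and 1.22 without the mitochondria-rich libraries (SE 0.11, adjusted p = 0.00041). The scaled levels set the 3 groups apart: 33.6, 20.4, 34.2 and 36.3 in HLJDD, 40.2, 44.9, 49.6 and 53.8 in HFD, and 14.8, 13.7 and 12.7 in ND. Dbp shares 539 exon bases with Sphk2 on the other strand, and the strand setting of the counting is not given in the sources used here. Sphk2, a sphingosine kinase gene, had a log2 change of -0.21 in HFD against ND (adjusted p = 0.364).

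Tef, the thyrotroph embryonic factor gene (chromosome 15, 81802673 to 81826863, plus strand), is the relative of Dbp with the shallower daily swing. Its levels were 15.0, 8.21, 14.6 and 16.1 FPKM in HLJDD, 8.12, 12.6, 14.2 and 16.4 FPKM in HFD, and 11.3, 10.8 and 7.36 FPKM in ND. The mitochondria-rich library of each treated group lay inside the ND range and the other 3 lay above it. The log2 change was 0.34 in HFD against ND (SE 0.26, adjusted p = 0.341) and 0.40 in HLJDD against ND (SE 0.26, adjusted p = 0.324). Without the mitochondria-rich libraries Tef passed in both as deposited, at 0.53 in HFD (SE 0.15, adjusted p = 0.0283) and 0.61 in HLJDD (SE 0.15, adjusted p = 0.0203). With all libraries and after scaling Tef passed in both, at 0.57 (SE 0.17, adjusted p = 0.0336) in HFD and 0.57 (SE 0.17, adjusted p = 0.0403) in HLJDD, and the scaled HFD and HLJDD libraries, at 10.7 or more, were all above the ND libraries, at 9.65 or less. It shares 193 exon bases with the antisense gene model Gm17597.

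Hlf, the hepatic leukemia factor gene (chromosome 11, 90336535 to 90390917, minus strand), was the lowest of the PAR bZIP genes. It had 1.77, 0.543, 1.69 and 1.97 FPKM in HLJDD, 0.482, 1.17, 1.97 and 2.65 FPKM in HFD, and 1.12, 1.13 and 0.395 FPKM in ND. The groups overlapped, with values from 0.482 to 2.65 FPKM inside HFD alone. The log2 changes of 0.39 in HFD against ND (95% interval -0.28 to 1.07, adjusted p = 0.353) and 0.39 in HLJDD against ND (-0.29 to 1.06, adjusted p = 0.434) did not pass, and with all libraries they did not after scaling either (adjusted p = 0.196 and 0.271). Without the mitochondria-rich libraries they were 0.63 in HFD (SE 0.21, adjusted p = 0.0503) and 0.60 in HLJDD (SE 0.21, adjusted p = 0.0693) as deposited. Scaled without those libraries, Hlf passed in HFD, at 0.71 (SE 0.21, adjusted p = 0.0414), and did not in HLJDD, at 0.62 (SE 0.21, adjusted p = 0.0659).

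The Period genes encode repressors of the CLOCK and BMAL1 pair. Per3 (chromosome 4, 150997018 to 151044707, minus strand) encodes the Period protein least needed for the rhythm itself in mice. It had 2.26, 1.47, 2.04 and 2.55 FPKM in HLJDD, 1.04, 2.45, 2.32 and 2.46 FPKM in HFD, and 0.901, 0.914 and 0.546 FPKM in ND. In reads that was 570, 301, 528 and 641 in HLJDD, 225, 564, 559 and 624 in HFD, and 216, 228 and 138 in ND. Every HLJDD and HFD library was above every ND library in FPKM, though HFD replicate 1 was close to ND. Per3 rose by 0.75 in HFD against ND (SE 0.20, adjusted p = 0.0255) and by 0.78 in HLJDD against ND (SE 0.20, adjusted p = 0.0256). After scaling the changes were 0.88 (SE 0.15, adjusted p = 0.00252) and 0.86 (SE 0.15, adjusted p = 0.00321). On reads, limma-voom gave 1.63 (SE 0.26, adjusted p = 0.00225) in HFD and 1.59 (SE 0.26, adjusted p = 0.00285) in HLJDD. That fit has no pseudocount of 1 FPKM and uses library sizes scaled by the median ratio, so its values are on another scale. With no filter neither comparison passed (adjusted p = 0.0687 in HFD and 0.0702 in HLJDD), nor did either with equal sums, where each library is brought to the same total FPKM (adjusted p = 0.0616 and 0.0615). The calls on deposited FPKM were close to the threshold: leaving out any of HFD replicates 2, 3 and 4 or any ND library brought the adjusted p in HFD against ND to 0.0512 to 0.0804, and leaving out HLJDD replicate 1 or 4 or any ND library brought that in HLJDD against ND to 0.0673 to 0.0847.

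Per1, which many stimuli switch on within an hour besides the clock (chromosome 11, 69095108 to 69109965, plus strand), stood at 2.22, 0.721, 2.32 and 2.47 FPKM in HLJDD, 1.65, 1.88, 2.30 and 2.45 FPKM in HFD, and 1.06, 0.913 and 1.05 FPKM in ND. All HFD libraries were above ND, whereas HLJDD replicate 2 was below all 3 ND libraries. The log2 change was 0.61 in HFD against ND (SE 0.22, adjusted p = 0.0739) and 0.49 in HLJDD against ND (SE 0.22, adjusted p = 0.16). After scaling both passed, at 0.75 (SE 0.17, adjusted p = 0.0119) and 0.57 (SE 0.17, adjusted p = 0.0448). Without the mitochondria-rich libraries both passed as deposited, at 0.67 in HFD (SE 0.10, adjusted p = 0.00204) and 0.73 in HLJDD (SE 0.10, adjusted p = 0.0019).

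Per2, a core repressor whose loss shortens and then ends the rhythm in mice (chromosome 1, 91415977 to 91459351, minus strand), had 5.84, 3.34, 4.10 and 7.71 FPKM in HLJDD, 2.06, 4.60, 4.83 and 4.81 FPKM in HFD, and 2.20, 2.61 and 2.82 FPKM in ND. The HLJDD libraries were all above ND, and HFD replicate 1 was below all ND libraries while the other 3 HFD libraries were above. The log2 change was 0.77 in HLJDD against ND (SE 0.26, adjusted p = 0.0814) and 0.47 in HFD against ND (SE 0.26, adjusted p = 0.204). After scaling it was 0.90 in HLJDD (SE 0.22, adjusted p = 0.0186), which passed, and 0.65 in HFD (SE 0.22, adjusted p = 0.0546), which did not. Without the mitochondria-rich libraries both passed as deposited, at 0.93 in HLJDD (SE 0.17, adjusted p = 0.00686) and 0.70 in HFD (SE 0.17, adjusted p = 0.0149).

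Nr1d1, the gene of REV-ERB alpha (chromosome 11, 98767932 to 98775377, minus strand), went the other way. Its levels were 32.4, 34.3, 40.5 and 26.8 FPKM in HLJDD, 47.9, 39.2, 36.2 and 34.9 FPKM in HFD, and 64.5, 63.4 and 54.6 FPKM in ND. No HLJDD or HFD library reached the lowest ND library. Means were 33.5 ± 5.66 FPKM in HLJDD (SD, n = 4), 39.5 ± 5.85 in HFD (n = 4) and 60.8 ± 5.45 in ND (n = 3). Nr1d1 fell by 0.62 in HFD against ND (SE 0.16, adjusted p = 0.0251) and by 0.85 in HLJDD against ND (SE 0.16, adjusted p = 0.00612). After scaling the changes were -0.36 (SE 0.21, adjusted p = 0.229) and -0.67 (SE 0.21, adjusted p = 0.0514), and neither passed. On reads they were -0.37 (SE 0.22, adjusted p = 0.263) and -0.68 (SE 0.22, adjusted p = 0.0563). Scaled HFD replicate 1 was at 63.7, above the ND libraries at 55.3, 54.9 and 52.5, while the other HFD libraries stood at 37.6, 36.1 and 35.8, and the HLJDD libraries at 30.2, 44.9, 35.2 and 27.1. With both mitochondria-rich libraries left out, the scaled changes passed, at -0.56 in HFD (SE 0.10, adjusted p = 0.00682) and -0.80 in HLJDD (SE 0.10, adjusted p = 0.00186). As deposited, the HFD call was lost when HFD replicate 3 or 4 or ND replicate 1 or 2 was left out (adjusted p = 0.0543 to 0.106), and the HLJDD call was kept without any 1 library. Nr1d1 shares 263 exon bases with Thra on the other strand, and Thra, a thyroid hormone receptor gene, had a log2 change of -0.38 in HFD against ND (adjusted p = 0.093).

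Nr1d2, the gene of REV-ERB beta (chromosome 14, 18204056 to 18239106, minus strand), was called in neither comparison with ND. It had 22.5, 17.4, 23.7 and 20.3 FPKM in HLJDD, 20.1, 29.0, 28.5 and 24.5 FPKM in HFD, and 38.1, 26.5 and 18.0 FPKM in ND. The ND range covered every HFD library and every HLJDD library except HLJDD replicate 2, which was just below it. Its log2 change was -0.06 in HFD against ND (95% interval -0.54 to 0.43, adjusted p = 0.866) and 0.19 after scaling, and -0.32 in HLJDD against ND (-0.81 to 0.16, adjusted p = 0.361) and -0.14 after scaling.

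Arntl and Clock encode the activating pair. Arntl (chromosome 7, 113178471 to 113314126, plus strand) had 0.340, 0.305, 0.408 and 0.323 FPKM in HLJDD, 0.525, 0.321, 0.259 and 0.252 FPKM in HFD, and 0.691, 0.755 and 0.961 FPKM in ND. In reads that was 243, 177, 298 and 230 in HLJDD, 322, 209, 177 and 181 in HFD, and 469, 533 and 688 in ND. In FPKM and reads every ND library was above every HFD and HLJDD library, and HFD replicate 1 was the nearest to ND. After scaling HFD replicate 1, at 0.698, was above ND replicates 1 and 2, at 0.592 and 0.653. The scaled HLJDD libraries were still all below ND. The FPKM are low partly through the length: reads and FPKM together give a gene length of 19.3 kb for Arntl, where the exons of GENCODE M21 cover 7.52 kb, so its level is not comparable with that of the other genes. With no filter Arntl fell by 0.43 in HFD against ND (SE 0.08, adjusted p = 0.0148) and by 0.42 in HLJDD against ND (SE 0.08, adjusted p = 0.0199), beside 4.08% and 3.23% of the 24294 symbols called lower in that fit. On reads, over 15488 symbols with at least 10 reads in 3 libraries, Arntl fell by 1.10 in HFD (SE 0.27, adjusted p = 0.0168) and by 1.04 in HLJDD (SE 0.26, adjusted p = 0.0222), beside 8.74% and 7.49% called lower. On scaled FPKM with no filter it did not pass in HFD, at -0.33 (SE 0.11, adjusted p = 0.0982), or in HLJDD, at -0.35 (SE 0.11, adjusted p = 0.0921), and passed in both without the mitochondria-rich libraries, at -0.43 (SE 0.07, adjusted p = 0.0149) and -0.37 (SE 0.07, adjusted p = 0.027). As deposited, with no filter, leaving out ND replicate 2 ended the HFD call (adjusted p = 0.0571), and leaving out HLJDD replicate 1 or 4 or ND replicate 2 ended the HLJDD call (adjusted p = 0.0585 to 0.0729). With no filter the HLJDD call was also lost at a pseudocount of 0.1 (adjusted p = 0.0563), and the HFD call when HFD and ND alone were fitted (adjusted p = 0.0548). Among 17 alternative fits Arntl was called in 13 in HFD against ND and in 11 in HLJDD against ND. These counts include the fit with no filter, which also gave its reference result. The highest limma adjusted p among the 17 fits were 0.0982 and 0.106.

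Clock (chromosome 5, 76209868 to 76305603, minus strand), whose transcript swings little over the day in most mouse tissues, had 6.79, 5.68, 7.27 and 6.07 FPKM in HLJDD, 5.67, 6.94, 7.20 and 5.73 FPKM in HFD, and 9.26, 7.46 and 6.26 FPKM in ND. The groups overlapped. Its log2 change was -0.22 in HFD against ND (95% interval -0.55 to 0.10, adjusted p = 0.283) and 0.0043 after scaling (SE 0.11), and -0.21 in HLJDD against ND (-0.53 to 0.12, adjusted p = 0.381) and -0.04 after scaling (SE 0.11).

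**Figure D2:**
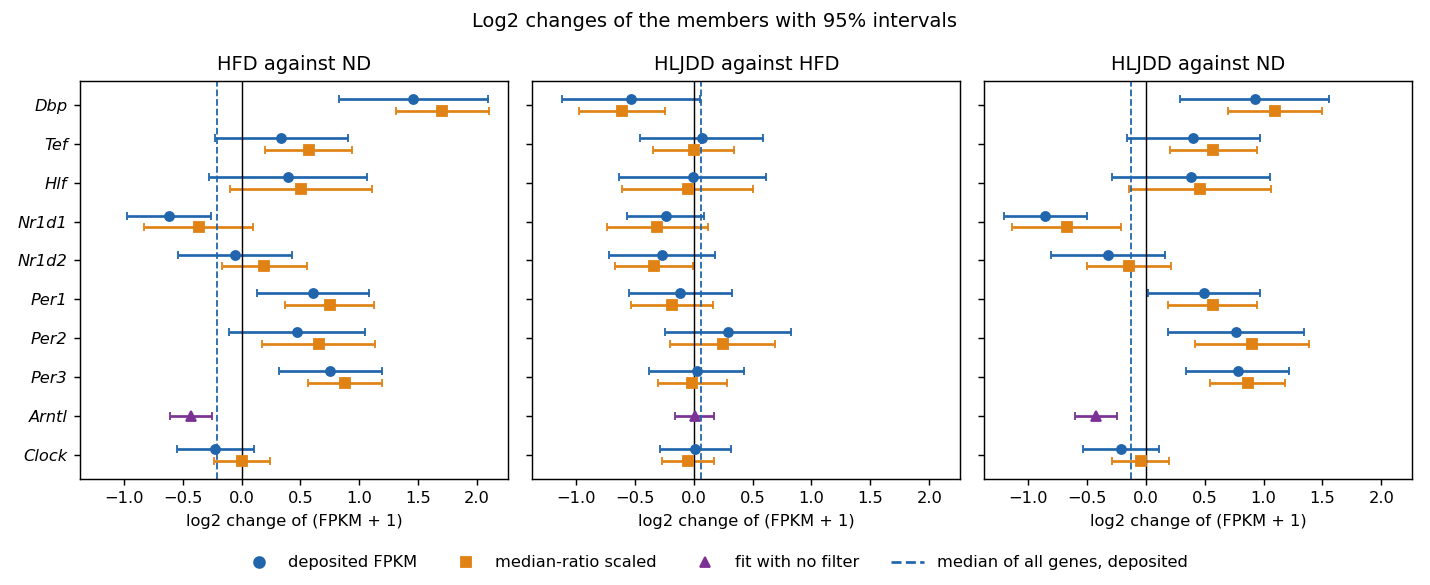
Log2 change of each gene with its 95% interval in the 3 comparisons, from deposited FPKM (circles), after median-ratio scaling (squares) and, for Arntl, from the fit with no filter (triangles); the dashed line is the median change of all tested symbols. Dbp has the largest change in HFD against ND, at 1.46 as deposited, and in HLJDD against HFD the Dbp interval as deposited still reaches past 0.

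Between HLJDD and HFD limma called none of the 9 genes, and none of the 10764 symbols, which is 0% in either direction, with or without scaling. Without the 2 mitochondria-rich libraries none of the 9 genes was called as deposited either, beside 1 symbol higher (0.00929%) and none lower. At an unadjusted p under 0.05, 186 symbols stood in this comparison as deposited and 567 after scaling, and limma-voom on reads called 0 with 561 at that level. Dbp came nearest among the clock genes, with a log2 change of -0.53 (SE 0.27, 95% interval -1.12 to 0.05, adjusted p = 0.999) and -0.61 after scaling (SE 0.17, adjusted p = 0.873). The Dbp change was below 0 in all 19 alternatives, from -0.71 to -0.23. The HLJDD and HFD libraries overlapped for all 10 genes as deposited, where 0.483% of symbols were separated with HLJDD above and 0.548% with HLJDD below. After scaling Dbp and Nr1d2 were separated, with HLJDD below HFD, beside 1.71% of symbols, and no gene with HLJDD above HFD, beside 1.89%. Scaled Nr1d2 was 20.9, 22.7, 20.6 and 20.6 in HLJDD, against 26.8, 27.8, 28.4 and 25.2 in HFD, a log2 change of -0.34 (SE 0.15, adjusted p = 0.873). The intervals of the other genes as deposited ran from -0.56 to 0.09 for Nr1d1, from -0.55 to 0.33 for Per1, from -0.24 to 0.83 for Per2, from -0.38 to 0.43 for Per3, from -0.45 to 0.59 for Tef, from -0.63 to 0.61 for Hlf and from -0.28 to 0.31 for Clock, so changes of these sizes in HLJDD against HFD were within what the libraries allow.

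Ratios of genes within a library do not depend on how libraries were scaled. The pairs were chosen after the values were seen, so the ratios are a description, with no test. The ratio of Dbp to Arntl was 106, 51.2, 96.5 and 111 in HLJDD, 57.5, 146, 191 and 208 in HFD, and 25.0, 20.9 and 13.7 in ND. No library of HLJDD or HFD came down to the ND range, the 2 mitochondria-rich libraries included, although these were the lowest of their groups. The ratio of Dbp to Nr1d1 averaged 0.969 in HLJDD, 1.17 in HFD and 0.253 in ND, and that of Per3 to Arntl 6.09, 7.08 and 1.03, again with HLJDD and HFD libraries all above ND. The ratio of Dbp to its relative Tef was 2.42, 1.90, 2.69 and 2.22 in HLJDD, 3.72, 3.71, 3.50 and 3.20 in HFD, and 1.53, 1.47 and 1.79 in ND. For this pair HLJDD lay between the other groups and overlapped neither. Dbp over Nfil3, its opponent at D-boxes, showed the same order, averaging 38.4 in HLJDD, 66.0 in HFD and 8.84 in ND, with no overlap between any of the groups. Per3 over Nr1d1 averaged 0.0645 in HLJDD, 0.0547 in HFD and 0.0128 in ND, with HLJDD and HFD libraries all above ND. Clock over Arntl and Nr1d1 over Nr1d2 did not part both groups from ND. Clock over Arntl was 17.8 to 20.0 in HLJDD, 10.8 to 27.8 in HFD and 6.52 to 13.4 in ND, so HLJDD lay above ND while HFD overlapped it. Nr1d1 over Nr1d2 was 1.32 to 1.97 in HLJDD, 1.27 to 2.38 in HFD and 1.69 to 3.04 in ND, overlapping throughout.

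**Figure D3:**
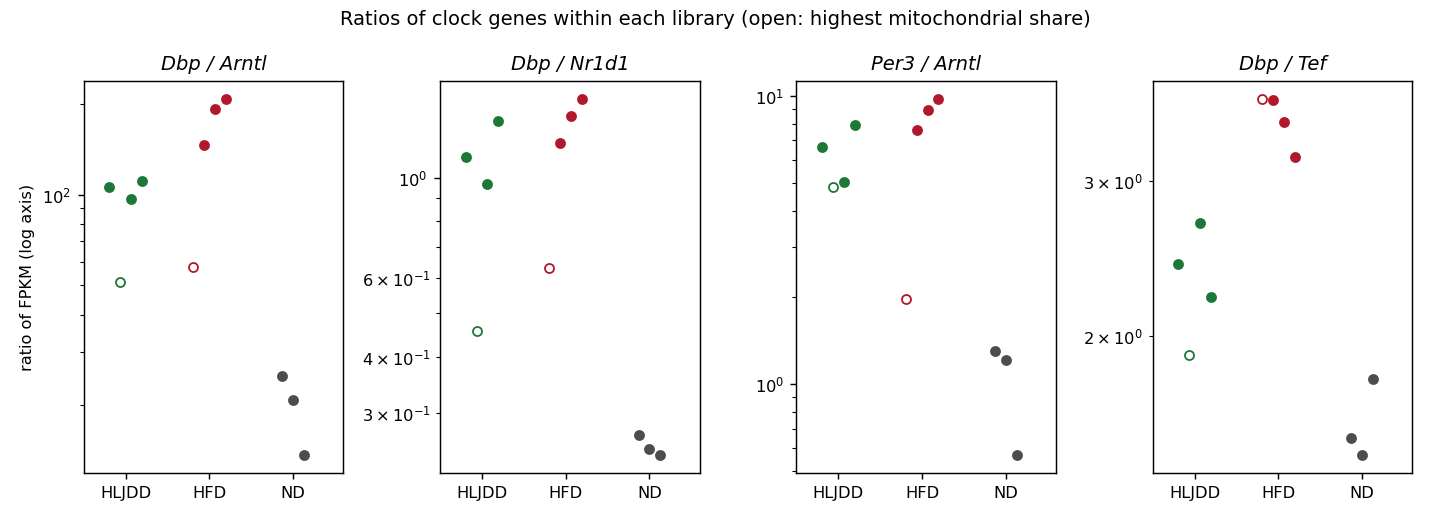
Ratio of FPKM within each library, on a log axis, for 4 pairs of clock genes in HLJDD, HFD and ND, with open points for HFD replicate 1 and HLJDD replicate 2. The ND libraries are lowest for every pair, and for Dbp over Tef all HLJDD libraries lie below all HFD libraries.

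The order of the levels per kilobase also differed between the groups, leaving out Arntl for its length. Reads and FPKM give 10.1 kb for Clock, 8.57 kb for Per1 and 6.81 kb for Per3. The exons of GENCODE M21 cover 13.7, 5.63 and 9.61 kb for these genes. The order between genes therefore rests on the lengths used for the deposited FPKM, and neighbours such as Clock and Per2 could change places with other lengths. In ND it ran Nr1d1 (60.8 FPKM), Nr1d2 (27.5), Dbp (15.4), Tef (9.79), Clock (7.66), Per2 (2.55), Per1 (1.01), Hlf (0.883) and Per3 (0.787). The ND libraries of Tef overlapped those of Clock, and the 3 lowest genes overlapped from one to the next. In HFD, Dbp (44.7) stood first and overlapped Nr1d1 (39.5), and Nr1d2 followed at 25.5. In HLJDD, Nr1d1 (33.5), Dbp (31.7) and Nr1d2 (21.0) each overlapped the next. Below these, Tef, Clock and Per2 kept their places in all 3 groups, and of the 3 lowest genes Hlf was last in HLJDD and HFD and Per3 in ND, with overlapping libraries.

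Other genes of the loop were taken from lists of known clock genes. The counts of list members called here and below stand beside these shares of all tested symbols: 5.06% higher and 11.5% lower in HFD against ND, and 4.1% higher and 7.79% lower in HLJDD against ND, as deposited. After scaling the shares were 11.6% and 11.4% in HFD against ND, and 8.62% and 9.18% in HLJDD against ND. Of 8 further repressors, 6 passed the filter, and in both HFD and HLJDD against ND 2 of them rose and 1 fell, with and without scaling. Nfil3, the D-box repressor, had 0.991, 0.432, 0.779 and 1.17 FPKM in HLJDD, 0.521, 0.909, 0.746 and 0.595 FPKM in HFD, and 1.70, 1.68 and 1.90 FPKM in ND, with no HLJDD or HFD library up to ND. Nfil3 fell by 0.71 in HFD against ND (SE 0.15, adjusted p = 0.00903) and by 0.60 in HLJDD against ND (SE 0.15, adjusted p = 0.0246), and after scaling by 0.57 (adjusted p = 0.00861) and 0.50 (adjusted p = 0.0192). It reached 1 FPKM only in the 3 ND libraries and 1 HLJDD library, so it passed the filter through ND, where it is high. With no filter the adjusted p was 0.0252 in HFD and 0.0534 in HLJDD, and on reads 0.00817 and 0.0173. Bhlhe40, which encodes DEC1, a repressor at E-boxes, averaged 24.6 ± 6.66 FPKM in HLJDD (n = 4), 25.5 ± 5.90 in HFD (n = 4) and 12.0 ± 3.61 in ND (n = 3), and all HLJDD and HFD libraries were above ND. It rose by 1.04 in HFD (adjusted p = 0.0211) and by 0.97 in HLJDD (adjusted p = 0.0334), and neither passed with no filter (adjusted p = 0.0572 and 0.0824). Nr0b2, the gene of the bile acid responsive repressor SHP, rose by 1.99 in HFD (adjusted p = 0.014) and by 2.10 in HLJDD (adjusted p = 0.0126), although it ranged from 0.970 to 6.81 FPKM within HFD and had 1 to 12 reads in ND libraries, which leaves the size of its change uncertain. Nr0b2 reached 1 FPKM in no ND library and passed the filter through HFD and HLJDD, where it is high. With no filter the adjusted p was 0.0514 in HFD and 0.0483 in HLJDD, and on reads neither passed (adjusted p = 0.0794 and 0.0845). The cryptochromes did not pass: Cry1 had log2 changes of -0.17 in HFD against ND (adjusted p = 0.497) and -0.35 in HLJDD against ND (adjusted p = 0.243), and Cry2 of -0.41 (adjusted p = 0.195) and -0.31 (adjusted p = 0.382). Ciart, a small repressor with a strong rhythm, had 0.44 in HFD (adjusted p = 0.299) and 0.21 in HLJDD (adjusted p = 0.685).

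Among further activators, Npas2, the stand-in for CLOCK, passed the filter and was not called. It had 2.19, 3.38, 2.56 and 2.27 FPKM in HLJDD, 3.44, 2.47, 2.73 and 2.69 FPKM in HFD, and 3.31, 4.32 and 4.62 FPKM in ND. It was highest, within HLJDD and HFD, in the mitochondria-rich library. Its log2 change was -0.40 in HFD against ND (adjusted p = 0.0842) and -0.50 in HLJDD against ND (adjusted p = 0.0531).

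**Figure D4:**
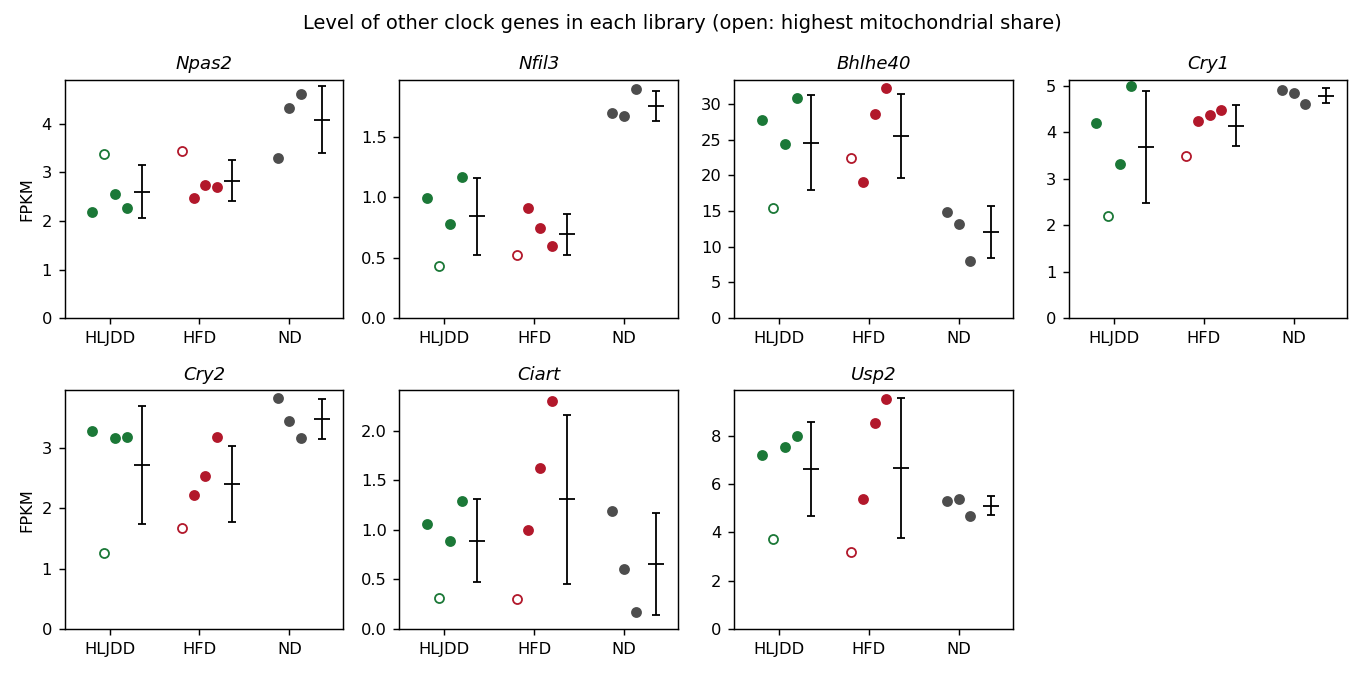
FPKM of 7 further clock genes in each library, with the mean and SD of each group as bars and open points for the mitochondria-rich libraries. Nfil3 is below ND and Bhlhe40 above ND in every HLJDD and HFD library. Of the other 5 genes only Cry1 is separated, with the 4 HFD libraries below ND, and after scaling Cry1 overlaps. As deposited, 32.9% of all tested symbols were separated with HFD below ND and 9.57% with HFD above. For HLJDD these shares were 21.3% and 8.3%.

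Of 13 genes for kinases, ligases and phosphatases that act on clock proteins, 10 passed the filter, and in HFD against ND 5 fell (Csnk1a1, Csnk2a1, Fbxw11, Ppp1cb and Prkaa1), beside 11.5% of all symbols, and none rose, beside 5.06%. Csnk2a1, Ppp1cb and Prkaa1 also fell after scaling, and these 3 fell in HLJDD against ND with and without it. Ppp1cb, a catalytic subunit of protein phosphatase 1, fell most, by 1.23 in HFD (adjusted p = 0.0112) and by 1.30 in HLJDD (adjusted p = 0.0102). Prkaa1, a catalytic subunit of the energy sensor AMPK, which in mice marks CRY1 for breakdown, fell by 0.79 in HFD (adjusted p = 0.0163) and by 0.67 in HLJDD (adjusted p = 0.0386).

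Downstream, 7 of 10 output genes rhythmic in many mouse organs passed the filter, and 1 was called in HFD against ND, Coq10b, which rose by 0.81 (adjusted p = 0.0163). None was called in HLJDD against ND, and after scaling Coq10b and Tsc22d3 were higher there. Usp2, whose daily course resembles that of Dbp in mouse liver, had 7.18, 3.73, 7.51 and 7.99 FPKM in HLJDD, 3.20, 5.37, 8.51 and 9.52 FPKM in HFD, and 5.27, 5.38 and 4.66 FPKM in ND. Its groups overlapped, and the log2 changes were 0.24 in HFD (adjusted p = 0.567) and 0.27 in HLJDD (adjusted p = 0.574). Of 8 genes reported as PAR bZIP targets in mouse gut, liver or kidney, 6 passed the filter and 1 rose in both comparisons with ND, Nr1i3, the gene of the xenobiotic receptor CAR. Nr1i3 averaged 28.5 ± 6.52 FPKM in HLJDD (n = 4), 30.3 ± 3.77 in HFD (n = 4) and 9.53 ± 4.29 in ND (n = 3), rising by 1.65 in HFD (adjusted p = 0.00167) and by 1.54 in HLJDD (adjusted p = 0.00293). Por, the reductase partner of the cytochromes P450, joined it after scaling, and Slc15a1, the peptide transporter, was lower after scaling in HLJDD (-1.09, adjusted p = 0.0421). Of 5 genes tied to Nfil3 in mouse gut epithelium, Cidec, a lipid droplet gene, rose in HFD by 1.66 (adjusted p = 0.00299), and Cidec and Scd1, a fatty acid desaturase gene, rose in HLJDD against ND, by 1.90 (adjusted p = 0.00169) and 1.74 (adjusted p = 0.00149). Cidec is also among the 7 adipocyte markers, whose summed FPKM was 164 to 299 in HLJDD, 91.5 to 143 in HFD and 74.5 to 88.2 in ND. Of the other adipocyte markers Adipoq, Lep, Plin1 and Retn rose in HLJDD against ND and none in HFD against ND, and their part in the result for Cidec was not tested. Of 9 enterocyte transporters and enzymes with a daily rhythm in mice, 9 passed the filter and Apoa4 alone was called as deposited, higher in both comparisons with ND; it is also one of the proximal markers below.

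**Figure D5:**
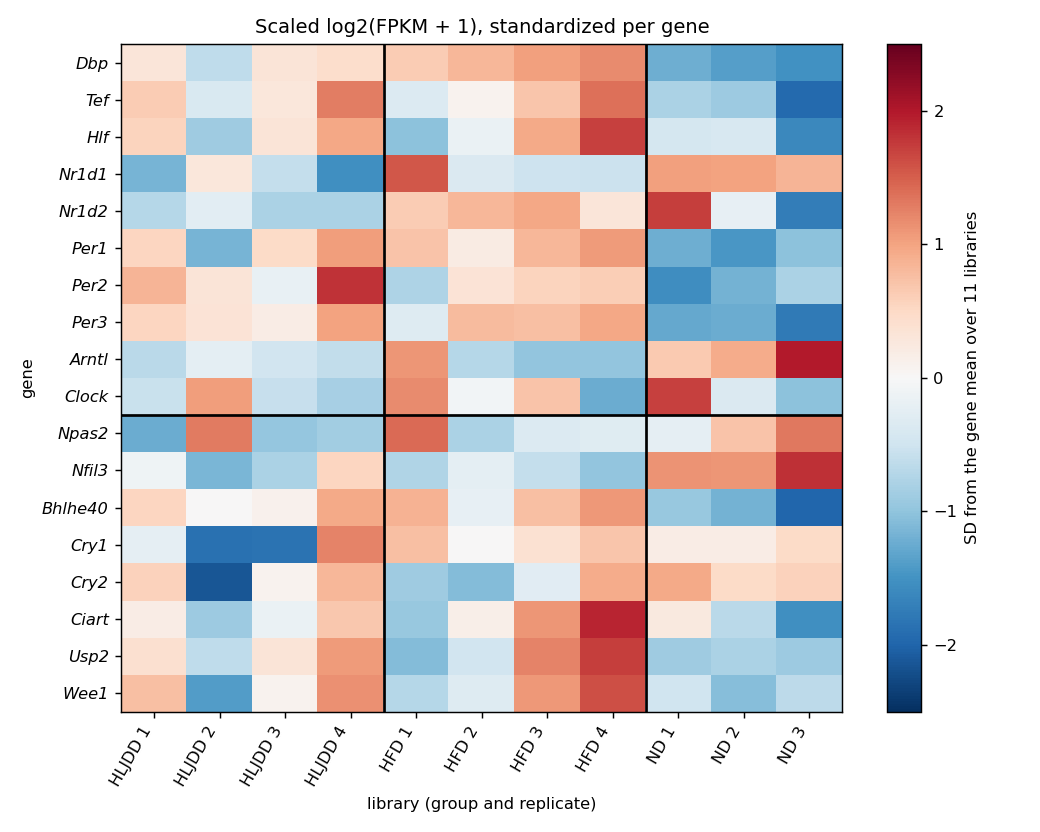
Scaled log2(FPKM + 1) of the 10 genes (above the line) and of 8 further clock genes in the 11 libraries, each gene shown in SD from its own mean. Dbp, Per1 and Per3 are below their mean in the 3 ND libraries and Nr1d1, Arntl and Nfil3 above it, and HFD replicate 1 shares high Nr1d1 and Arntl with ND while its Dbp is on the HFD side.

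Across the 11 libraries, which share the 3 groups, so that group differences enter every coefficient, Pearson's r of scaled log2(FPKM + 1) with Dbp was 0.93 for Per1, 0.88 for Per3, 0.84 for Tef, 0.70 for Hlf, 0.66 for Per2, 0.26 for Nr1d2, -0.15 for Clock, -0.58 for Nr1d1 and -0.76 for Arntl. With Arntl it was -0.93 for Per3, -0.90 for Tef, -0.84 for Hlf, -0.76 for Per2, -0.64 for Per1, -0.22 for Nr1d2, 0.16 for Clock and 0.82 for Nr1d1. Outside these 10 genes, the patterns most like Dbp among named genes were those of Pramel34 (r = 0.97), Sema7a (0.95), Tbc1d31 (0.94), Slc18a1 (0.94) and Thrb (0.93), and the most opposite those of Gab2 (-0.96), Eif2ak2 (-0.96), Tada2b (-0.95), Capn5 (-0.95) and Ssh3 (-0.95). Most like Arntl were Apaf1 (0.97), Nfxl1 (0.96), Tprn (0.94), Rab32 (0.94) and Relb (0.94), and most opposite were Ppic (-0.93), Per3, Slc25a17 (-0.92), Ghr (-0.91) and Cers4 (-0.90).

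Genes that respond to handling or to stress hormones were listed as well. Of 12 immediate early genes, which handling and growth factors switch on within minutes, 10 passed the filter, and 5 rose in HFD against ND (Atf3, Btg2, Fos, Fosb and Jun), beside 5.06% of all symbols, and 1 fell (Klf4), beside 11.5%; Fos and Jun rose and Klf4 fell in HLJDD against ND. Fosb reached 1 FPKM in no ND library and passed the filter only through the other groups. Fos averaged 81.5 ± 24.2 FPKM in HLJDD (n = 4), 79.4 ± 19.5 in HFD (n = 4) and 37.8 ± 14.0 in ND (n = 3). Of 9 glucocorticoid-induced genes, Per1 among them, 8 passed the filter, and Cdkn1a fell in HFD against ND while none was called in HLJDD against ND. After scaling Pdk4 and Per1 were higher in HFD, and Pdk4, Per1 and Tsc22d3 in HLJDD. The part of these genes in the results for Per1 and Dbp was not tested.

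Markers of the proximal and distal small intestine moved with the groups as well. The summed FPKM of 12 proximal small intestine markers was 29497 to 50795 in HLJDD, 35600 to 47987 in HFD and 1677 to 9876 in ND, with Cyp8b1 at 0 in all 3 ND libraries and at no more than 1 read in any library. Of the 9 that passed the filter 7 rose and 1 fell in each comparison with ND, against 5.06% and 11.5% of all symbols in HFD and 4.1% and 7.79% in HLJDD. The sum of 12 distal markers was 467 to 1269 in HLJDD, 535 to 1061 in HFD and 2257 to 13042 in ND, and 7 of 11 fell in HFD and 8 in HLJDD, with none higher. Onecut2, Slc40a1 and Slc10a2 in these lists, Lep, Plin1 and Retn among the adipocyte markers and Mzb1 among those of B and plasma cells passed the filter through the groups where they are high. The clock genes and these region markers thus differ between the same libraries, and their differences from ND cannot be told apart by the design. Within ND the distal sums were 13042, 9477 and 2257 in replicates 1, 2 and 3, while Dbp was 17.2, 15.8 and 13.2 FPKM, Per3 0.901, 0.914 and 0.546 FPKM and Arntl 0.691, 0.755 and 0.961 FPKM. ND replicate 3, the nearest of the ND libraries to HFD in its region markers, was thus the farthest from HFD in these 3 genes, as it was in Tef and Hlf, and it was the nearest to HFD in Nr1d1, Per2 and Clock. Of the 7 adipocyte markers 5 were higher in HLJDD against ND and 1 in HFD against ND. Those of B and plasma cells were 116 to 302 FPKM in HLJDD, 125 to 285 in HFD and 38.0 to 64.7 in ND, with Mzb1 higher in HFD. Smooth muscle sums were 169 to 453 FPKM in HLJDD, 151 to 600 in HFD and 445 to 631 in ND, enterocyte sums 10218 to 17703, 13644 to 18493 and 11958 to 17984, T cell sums 5.89 to 16.4, 14.0 to 21.1 and 16.2 to 21.2, enteric neuron and glia sums 6.84 to 11.4, 4.88 to 14.7 and 11.9 to 19.7, and crypt sums 184 to 469, 120 to 392 and 326 to 378, in the same order of groups. As deposited, the enterocyte marker Alpi alone was called in these last 5 lists, higher in both comparisons with ND, and the part of cell makeup in the clock results was not tested.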

How the data were processed

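Total RNA of mouse small intestine was sequenced, and the authors deposited FPKM per gene symbol for 11 libraries, per the file headers. The submitters' processing notes name fastp, HISAT2, HTSeq, R 3.2.0 and the build mm10; for the annotation and the strand setting, the sources used here name none. For all 24294 symbols the FPKM steps gave whole reads (100% within 0.01 reads), which supplied depths and the fits on reads. A symbol found in a single library or in none meets this by construction. Reads of a symbol that share a common factor would come out too small.

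Groups came from sample titles. Symbols at 1 FPKM or more in at least 3 libraries (10764) were tested as log2(FPKM + 1) with limma 3.58.1 in R 4.3.3 (trended prior, all 11 libraries in 1 fit, Benjamini-Hochberg adjustment over all symbols), and the fit was tested on simulated data. Arntl was matched through a RefSeq synonym. Alternatives were a pseudocount of 0.1, no filter, a mean of at least 5 FPKM, equal sums (TPM), median-ratio scaling, limma-voom on recovered reads, a fit of the 2 groups compared, a replicate block, leaving out the 2 libraries of highest mitochondrial share, and leaving out each library. Limma-voom at 10 or more reads in 3 libraries, and scaling without those 2 libraries, were added after the data were seen.

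The 10 genes and the lists of other clock, response and marker genes were chosen with earlier results of these data known. Beside the 10 genes the text names set clock genes, list members that were called or had the smallest adjusted p, and the 5 genes most alike and most opposite to Dbp and Arntl; the ratios were chosen after the values were seen. 1 listed gene is not reported here. Promoter letters and gene positions came from RefSeq, and gene strands, exon lengths and exon overlaps from GENCODE M21, both on GRCm38.p6. Intervals cover 95%.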

Additional observations from a re-analysis of the deposited data

Results flagged for a closer look

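Single libraries stood far from the others of their group in 4 of 20 cases, these being the 10 genes in each group of 4 libraries, by the gap to the nearest library over the whole range of the group (past Dixon's 95% critical value for 4 samples). Chance alone gives about 1 in 20. Dbp was lowest in HLJDD replicate 2, at 15.6 FPKM, with the gap at 0.851 of the range, and Per1 was lowest in the same library, at 0.721 FPKM (0.857). Per2 was lowest in HFD replicate 1, at 2.06 FPKM (0.917), and so was Per3, at 1.04 FPKM (0.900). These are the libraries with 40.7% and 32.4% of reads from the mitochondrial genome. After median-ratio scaling HLJDD replicate 2 stood at 20.4 for Dbp and 0.943 for Per1, and HFD replicate 1 at 2.74 for Per2 and 1.38 for Per3, in each case still the lowest of the group. What the mitochondrial share contributed to these values was not tested.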

How the results depend on the processing

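In HFD against ND the 2 clock genes called higher became 1 with no filter, with a mean of at least 5 FPKM, with equal sums and with the replicate block. They became 3 when HFD and ND alone were fitted, and 4 with median-ratio scaling. They became 5 with limma-voom under either filter and without the 2 mitochondria-rich libraries, and 6 with that scaling and without those libraries. The 1 called lower became 2 with no filter, where Arntl entered. It became 0 with scaling of all libraries, with voom under the filter of 1 FPKM and with the replicate block. With voom at 10 reads in 3 libraries it was 1, Arntl, and with scaling without those 2 libraries also 1. In HLJDD against ND the 1 called higher became 0 with no filter, with a mean of at least 5 FPKM (which removes Per3), with equal sums and with the block. It became 5 with scaling, voom under either filter, and without those 2 libraries, scaled or not. The 1 called lower became 2 with no filter and 0 with scaling of all libraries and with voom under the filter of 1 FPKM. With voom at 10 reads in 3 libraries it was 1, Arntl, and with scaling without those 2 libraries also 1. Leaving out 1 library at a time gave 1 to 2 higher and 0 to 1 lower in HFD against ND, 0 to 4 higher and 1 lower in HLJDD against ND, and 0 in HLJDD against HFD. The causes were not tested.

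Over all symbols, the 545 higher in HFD against ND became 291 with equal sums, 1248 with scaling, 1250 with voom, 1013 without the 2 libraries, 1325 with voom at 10 reads and 1262 scaled without the 2 libraries (223 to 571 leaving out 1), and the 1241 lower became 810 at a mean of 5 FPKM, 694 with the block and 2339 without the 2 libraries (440 to 1219). The 441 higher in HLJDD against ND became 243, 928, 958, 1281, 1011 and 1202 in the same order and 280 with the block (154 to 815), and the 838 lower became 444 with the block and 1294 without the 2 libraries (316 to 1052). In HLJDD against HFD 1 symbol was higher without the 2 libraries, and 2 higher and 1 lower with scaling as well (0 to 1 leaving out 1).

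The labels do not say whether replicate numbers pair the libraries. Deviations of same-numbered libraries correlated at -0.14, 0.083 and -0.081 in HFD against ND. They correlated at -0.16, 0.11, 0.15 and 0.34 in HLJDD against HFD, and at 0.035, -0.043 and -0.27 in HLJDD against ND. Libraries of different numbers were not compared, so these values cannot settle whether a pairing exists. The block left 386 symbols higher and 694 lower in HFD against ND.

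The single gene values count Arntl with no filter as an alternative, though that fit was also its reference. Of the single gene values, 416 kept direction and side of the threshold, 39 came past it, 38 fell short of it and 42 changed sign, all of them never called. Those were Nr1d2 in HFD against ND (0.19 scaled, 0.20 with voom under either filter, 0.050 without the 2 libraries, 0.20 scaled without them; -0.32 to 0.20 leaving out 1), Clock in HFD against ND (0.0043 scaled, 0.0069 and 0.0061 with voom), and, in HLJDD against HFD, Tef (-0.00040 scaled, -0.00046 and -0.00032 with voom; -0.12 to 0.27), Hlf (0.019 at a pseudocount of 0.1, 0.013 with equal sums; -0.25 to 0.21), Per1 (0.058 without the 2 libraries; -0.21 to 0.13), Per3 (-0.012 scaled, -0.045 and -0.043 with voom, -0.057 without the 2 libraries, -0.12 scaled without them; -0.16 to 0.13), Arntl (-0.022 scaled; -0.022 to 0.073) and Clock (-0.048 scaled, -0.054 and -0.055 with voom, -0.058 scaled without the 2 libraries; -0.037 to 0.067).

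Reads per library were fewest for Hlf (88 to 593), Per3 (138 to 641), Arntl (177 to 688) and Per1 (186 to 784), and at least 401 for the other genes.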
